A study of Homo sapiens with 8 samples.

Results

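Messenger RNA of 10 genes for secreted inflammatory proteins was followed across 8 RNA sequencing libraries of SK-Hep1 cells. The genes were CXCL1, CXCL2, CXCL3, CXCL8, IL24, IL1A, IL1B, IL6, LIF and CCL2. They were chosen by symbol, through their Ensembl identifiers, from 58302 genes per library. The choice was made with earlier results of these data known, so counts of members beside shares of all genes are descriptions only. All 10 were found, and 9 reached a mean of at least 1 FPKM (fragments per kilobase of transcript, scaled to library depth), the level set for testing. CCL2 did not. SK-Hep1 is an established human line derived from a liver tumour. The libraries came from mock control cells and from cells made to express SLC29A2, an equilibrative nucleoside transporter. Each of these cell types received a control treatment, sorafenib alone, dipyridamole alone or both drugs. Sorafenib inhibits several kinases, among them RAF and vascular endothelial growth factor receptors. Dipyridamole inhibits nucleoside transporters and phosphodiesterases. The labels of the control treatment name no drug, and the sources used here state neither doses nor treatment times, nor whether the SLC29A2 cells are 1 clone or a pool.

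The CXC chemokines CXCL1, CXCL2, CXCL3 and CXCL8 attract neutrophils through the receptors CXCR1 and CXCR2. Interleukins 1 alpha and 1 beta, encoded by IL1A and IL1B, are alarm cytokines whose receptor activates NF-kB and AP-1. Those factors, with C/EBP proteins, drive transcription of CXC chemokines and IL6. The products of IL6 and LIF signal through the shared receptor chain gp130 to STAT3, and IL24 belongs to the interleukin 10 family. CCL2 attracts monocytes. Many of these messenger RNAs are short-lived because AU-rich elements recruit decay factors such as tristetraprolin.

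Each of the 8 conditions had 1 library, so no condition was replicated. The 8 libraries form a complete layout of 3 factors (cell type, sorafenib and dipyridamole), and each factor was compared over 4 pairs of libraries that differ in that factor alone. The p-values therefore measure only the spread among these 8 libraries, which may be technical. That spread also holds any interaction between factors that the fit leaves out. In bulk RNA, fewer expressing cells and less RNA per cell cannot be told apart. Depth was 14.07 to 16.69 M reads per library, and 22613 to 24801 genes were above 0. SLC29A2 itself was at 7.11 to 7.81 FPKM in the 4 control-cell libraries and at 1477 to 3040 in the 4 SLC29A2-cell libraries. The control-cell library with both drugs stood apart, with the most genes above 0, 24801, and a size factor (median of ratios) of 1.16 beside 0.93 to 1.02 in the other 7. The control-cell library with dipyridamole came next with 23766 genes, close to the 23514 of SLC29A2 cells with both drugs. Results were recomputed with each library left out, and with the pair of dipyridamole-treated control-cell libraries left out.

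The bases just before the RefSeq transcription starts of 6 members are shown because the NF-kB, AP-1 and C/EBP families are known to act at several of these promoters. The build is GRCh38.p14, each line holds the 250 bases before the start, 5′ to 3′ on the strand of the gene, and capitals mark motif matches.

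CXCL1 (chr4:73869143-73869392, plus strand): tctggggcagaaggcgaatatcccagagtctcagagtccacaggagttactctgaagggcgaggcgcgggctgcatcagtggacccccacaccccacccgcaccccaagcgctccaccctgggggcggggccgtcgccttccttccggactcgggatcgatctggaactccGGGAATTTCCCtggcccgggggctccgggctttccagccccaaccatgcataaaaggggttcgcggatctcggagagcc
CXCL2 (chr4:74099196-74099445, minus strand): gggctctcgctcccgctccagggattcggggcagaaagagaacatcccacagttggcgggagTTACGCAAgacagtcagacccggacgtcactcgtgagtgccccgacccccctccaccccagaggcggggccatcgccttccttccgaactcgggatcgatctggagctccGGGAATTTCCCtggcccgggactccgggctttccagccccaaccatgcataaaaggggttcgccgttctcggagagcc
CXCL3 (chr4:74038690-74038939, minus strand): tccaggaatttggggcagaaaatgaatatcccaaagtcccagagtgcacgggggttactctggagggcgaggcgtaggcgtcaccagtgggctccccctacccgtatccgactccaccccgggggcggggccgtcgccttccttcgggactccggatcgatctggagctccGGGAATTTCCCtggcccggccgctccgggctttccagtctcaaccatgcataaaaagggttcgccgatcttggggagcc
CXCL8 (chr4:73740319-73740568, plus strand): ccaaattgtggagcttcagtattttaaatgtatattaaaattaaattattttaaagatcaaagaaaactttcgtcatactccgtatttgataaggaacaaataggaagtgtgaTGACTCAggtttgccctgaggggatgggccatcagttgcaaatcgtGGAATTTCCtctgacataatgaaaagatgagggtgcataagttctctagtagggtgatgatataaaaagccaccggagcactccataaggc
IL6 (chr7:22726950-22727199, plus strand): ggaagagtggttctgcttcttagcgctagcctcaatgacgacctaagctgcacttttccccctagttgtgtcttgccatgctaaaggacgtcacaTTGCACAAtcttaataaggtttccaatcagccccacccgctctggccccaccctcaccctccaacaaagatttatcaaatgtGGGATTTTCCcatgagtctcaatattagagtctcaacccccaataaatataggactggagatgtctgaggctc
IL24 (chr1:206897193-206897442, plus strand): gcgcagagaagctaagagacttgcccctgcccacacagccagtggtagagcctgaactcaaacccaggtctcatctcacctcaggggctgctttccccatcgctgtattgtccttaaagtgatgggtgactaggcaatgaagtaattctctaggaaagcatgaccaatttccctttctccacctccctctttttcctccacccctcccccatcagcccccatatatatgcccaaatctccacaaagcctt

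RefSeq windows of 250 bases before and 50 after the start were matched for 8 of the 10 members, and LIF and CCL2 had none. Motifs were searched on both strands. The kB core GGANTTTCC occurred in 5 of the 8 windows, those of CXCL1, CXCL2, CXCL3, CXCL8 and IL6, and in 1.64% of 35116 windows of the same length. Its first base lay 78, 77, 78, 91 and 72 bases before the start, in that order. A longer kB consensus overlapped it in CXCL1, CXCL2, CXCL3 and IL6 and was found in 5.91% of all windows. The consensus was among the motifs planned and the core was not. The count of the core beside its share of all windows is therefore a description only. The AP-1 letters TGANTCA were in CXCL8, beginning 137 bases before the start, and in IL1A (7.71% of all windows). The C/EBP letters TTGCNNAA were in CXCL2, IL6 and IL1B (10.5% of all windows). The cAMP response letters TGACGTCA were in 0 of the 8 (1.85% of all windows), and the IL24 window held none of the motifs searched. The windows of CXCL1 and CXCL3 had the same base at 68.7% of positions, and those of CXCL1 and CXCL2 shared a run of 42 bases. The CXCL8 window shared no run of at least 12 bases with the other 3.

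The 4 CXC genes lie in 1 cluster on chromosome 4 (GRCh38, GENCODE release 29). CXCL8 is at chr4:73740506-73743716 and CXCL1 at chr4:73869393-73871242, both on the plus strand. CXCL3 is at chr4:74036589-74038807 and CXCL2 at chr4:74097035-74099293, both on the minus strand. The chemokine genes between them were nearly silent. CXCL6 did not exceed 0.273 FPKM in any library, and PF4V1, PF4, PPBP and CXCL5 were listed at 0 in all 8. Some reads of the 3 most similar genes may have been shared by counting, and no read length is stated in the sources used here. Windows of 50 bases identical to one in a related gene made up 12.5% of the CXCL2 transcript windows, 6.01% of those of CXCL3, 4.81% of those of CXCL1 and none of those of CXCL8. Windows of 100 bases identical to one in a related gene made up 5.00% for CXCL2, 3.27% for CXCL3 and none for CXCL1 or CXCL8.

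CXCL8, a potent neutrophil attractant, was lower in every sorafenib library than in every library without it. In control cells its level was 12.7 FPKM with the control treatment, 4.42 with sorafenib, 46.9 with dipyridamole and 8.94 with both drugs. In SLC29A2 cells the levels were 18.4, 6.41, 32.1 and 5.63 FPKM in the same order. The 4 sorafenib libraries reached 8.94 FPKM at most, and the other 4 began at 12.7, so the groups did not overlap. Dipyridamole alone gave the highest level in each cell type. CXCL8 fell with sorafenib, by 1.83 ± 0.25 (SE) on the scale of log2(FPKM + 1) that is used for all fitted differences here, which understates changes of low genes (limma, adjusted p = 0.0062). It rose with dipyridamole by 0.82 ± 0.25 (adjusted p = 0.037). The sorafenib call held when each library was left out in turn. The dipyridamole call was lost without either untreated library, either dipyridamole library, or the control-cell library given sorafenib or both drugs (limma adjusted p 0.069 to 0.111).

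CXCL2, a ligand of CXCR2, was higher in every dipyridamole library than in every library without it. Its levels in control cells were 14.1 FPKM with the control treatment, 7.40 with sorafenib, 71.3 with dipyridamole and 66.6 with both drugs. In SLC29A2 cells they were 12.9, 12.6, 73.6 and 19.5 FPKM. The lowest dipyridamole library, SLC29A2 cells with both drugs at 19.5, was above the highest library without it at 14.1. CXCL2 rose with dipyridamole by 2.07 ± 0.32 (limma adjusted p = 0.0019), and the call held without each library. Under sorafenib its difference was -0.71 ± 0.32 (adjusted p = 0.197). Sorafenib left CXCL2 1.07-fold lower in dipyridamole-treated control cells and 3.78-fold lower in dipyridamole-treated SLC29A2 cells, as ratios of FPKM.

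CXCL1 and CXCL3 share receptors with CXCL2. CXCL1 in control cells was at 26.2 FPKM with the control treatment, 20.6 with sorafenib, 44.0 with dipyridamole and 22.2 with both drugs, and in SLC29A2 cells at 34.5, 24.4, 60.9 and 8.63. Its sorafenib libraries all lay below the others, at 24.4 at most against 26.2 at least. The fitted sorafenib difference, -1.11 ± 0.34, did not pass (limma adjusted p = 0.080), but passed without the untreated control-cell library (0.035) or the SLC29A2-cell sorafenib library (0.040). Dipyridamole did not move CXCL1 the same way in every pair. Without sorafenib CXCL1 was 1.68-fold higher in control cells and 1.77-fold higher in SLC29A2 cells. Beside sorafenib it was 1.08-fold higher in control cells but 2.83-fold lower in SLC29A2 cells. The fitted dipyridamole difference was 0.06 ± 0.34 (limma adjusted p = 0.915). Without the SLC29A2-cell library given both drugs it was 0.54 ± 0.15 (adjusted p = 0.028), and its sign turned when library size factors were applied.

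CXCL3 was the least abundant of the 4. Its levels were 1.62, 1.43, 6.47 and 3.94 FPKM in control cells, in the same order of treatments, and 2.45, 1.20, 6.22 and 1.35 in SLC29A2 cells. Both dipyridamole-only libraries stood above the other 6. CXCL3 rose with dipyridamole by 0.92 ± 0.26 (limma adjusted p = 0.025). That call was lost without the control-cell library that was untreated, given dipyridamole or given both drugs, or without the SLC29A2-cell dipyridamole library (adjusted p 0.061 to 0.091). The sorafenib difference was -0.74 ± 0.26 (adjusted p = 0.105), which passed without the untreated control-cell library (0.041). It also passed with all pairwise interactions in the model (0.0063). That model has nearly as many terms as libraries, so little is left to estimate error.

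**Figure D1:**
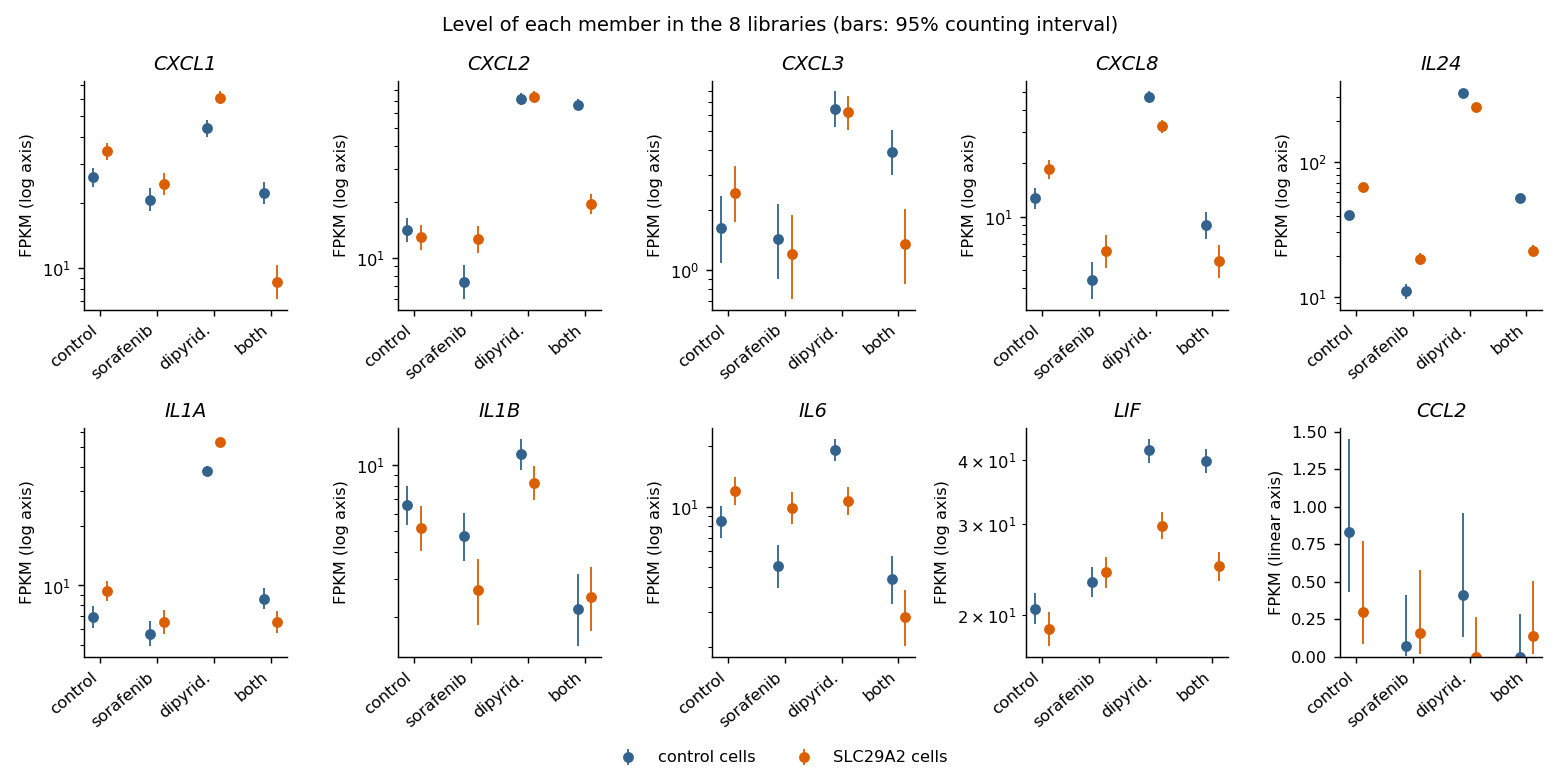
Level of each of the 10 genes in the 8 libraries, in FPKM on a log axis (CCL2 on a linear axis), with points for single libraries by treatment and cell type and bars for the 95% Poisson counting interval of that library. IL24 reaches 322.6 FPKM with dipyridamole in control cells, and CCL2 stays below 1 FPKM.

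IL24 had the widest range of the members. This cytokine of the interleukin 10 family lies at chr1:206897443-206904139. In control cells it was at 40.3 FPKM with the control treatment, 11.01 with sorafenib, 322.6 with dipyridamole and 54.1 with both drugs. In SLC29A2 cells it was at 65.5, 19.2, 254.3 and 22.0 FPKM. The highest library was 29.3 times the lowest, and both dipyridamole-only libraries were far above the other 6. IL24 fell with sorafenib by 2.38 ± 0.36 (limma adjusted p = 0.0081) and rose with dipyridamole by 1.82 ± 0.36 (adjusted p = 0.0057). Both calls held without each single library. The sorafenib groups overlapped, because control cells with both drugs, at 54.1, exceeded untreated control cells. IL24 made up 53.6% of the summed FPKM of the 10 genes in dipyridamole-treated control cells and 13.2% in sorafenib-treated control cells.

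IL1A and IL1B are neighbours on chromosome 2, at chr2:112773915-112784590 and chr2:112829751-112836903. IL1A was at 6.94, 5.70, 37.9 and 8.59 FPKM in control cells given the control treatment, sorafenib, dipyridamole and both drugs. In SLC29A2 cells it was at 9.40, 6.53, 53.0 and 6.54. Only the dipyridamole-only libraries were above 10 FPKM. IL1A rose with dipyridamole by 1.30 ± 0.37 (limma adjusted p = 0.029). The call was lost without either untreated library, either dipyridamole library or the control-cell library with both drugs (adjusted p 0.051 to 0.103). The sorafenib difference of -1.39 ± 0.37 did not pass (adjusted p = 0.053), but passed without the untreated control-cell library (0.022) or the SLC29A2-cell sorafenib library (0.028).

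IL1B, whose product needs proteolytic processing before release, was at 6.58, 4.72, 11.3 and 2.19 FPKM in control cells and at 5.15, 2.66, 8.32 and 2.47 in SLC29A2 cells. Every sorafenib library, at 4.72 or less, lay below every other library, at 5.15 or more. IL1B fell with sorafenib by 1.13 ± 0.24 (limma adjusted p = 0.027). That call was lost without the dipyridamole or the both-drug library of either cell type (adjusted p 0.067 to 0.103). The dipyridamole difference was 0.09 ± 0.24 (adjusted p = 0.792). IL1B was 1.71-fold higher with dipyridamole alone in control cells and 1.62-fold higher in SLC29A2 cells, and 2.15-fold and 1.08-fold lower when dipyridamole was added to sorafenib.

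IL6 lies at chr7:22725884-22732002 and overlaps STEAP1B on the opposite strand. STEAP1B was at 17.5 to 38.5 FPKM, and since strand is not stated, their reads cannot be told apart where they overlap. IL6 was at 8.44, 5.07, 19.2 and 4.36 FPKM in control cells and at 12.03, 9.88, 10.7 and 2.82 in SLC29A2 cells. Both libraries with 2 drugs were the lowest of all. The sorafenib difference was -1.11 ± 0.33 (limma adjusted p = 0.071), which passed without the untreated control-cell library or the SLC29A2-cell sorafenib library (0.010 and 0.032). The dipyridamole difference was -0.19 ± 0.33 (adjusted p = 0.700).

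LIF, a cytokine of the IL6 family known for holding stem cells undifferentiated, had the narrowest range of the 9 tested members. It lies at chr22:30240447-30246851 and overlaps 2 antisense genes, AC004264.1 at 0.901 to 3.49 FPKM and LIF-AS1 at 0.0793 at most. LIF was at 20.6, 23.2, 41.8 and 39.9 FPKM in control cells and at 18.8, 24.2, 29.8 and 24.9 in SLC29A2 cells. All 4 dipyridamole libraries were above all 4 others, although the 95% counting intervals of the nearest libraries, at 24.9 and 24.2 FPKM, overlap. LIF rose with dipyridamole by 0.61 ± 0.15 (limma adjusted p = 0.015), a call lost without the control-cell library given dipyridamole or both drugs (adjusted p 0.051 to 0.052). Its sorafenib difference was 0.05 ± 0.15 (adjusted p = 0.864), with a 95% interval of -0.28 to 0.39, and its sign turned with size factors.

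CCL2, the monocyte attractant on chromosome 17 (chr17:34255218-34257203), was at the edge of detection. The recovered reads were 12, 1, 5 and 0 in control cells, in the order of treatments used above, and 4, 2, 0 and 2 in SLC29A2 cells. The highest level was 0.830 FPKM, in untreated control cells. With 0 reads, the level of 3 reads remains possible, 0.231 FPKM in control cells with both drugs and 0.214 in SLC29A2 cells with dipyridamole. The 95% counting intervals of these libraries reach 0.285 and 0.263 FPKM, counting error only. No fold is given for CCL2. It entered the limma fit only when no filter on low values was set, and no effect or interaction passed there (adjusted p 0.393 to 1.0).

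Across the 9 tested members 3 fell with sorafenib, CXCL8, IL24 and IL1B, none rose and 6 did not pass. Of all 13899 genes tested, 8.11% passed for sorafenib in either direction, 5.94% higher and 2.17% lower. At an unadjusted p under 0.05 the limma fit counted 7 of the 9, and 26.6% of all genes. With all pairwise interactions in the model CXCL1, CXCL3, IL1A and IL6 passed as well. Such a model has nearly as many terms as libraries, so little is left to estimate error. In that model 4839 of the 13899 genes passed, 1426 of them lower, against 1127 in the main fit. The median difference of the members was -1.11, beside 0.09 over all genes tested. All members but LIF were lower with sorafenib in all 4 library pairs, 8 of 9, a pattern seen in 13.1% of all genes, while none was higher in all 4 (28.4% of all genes). CXCL1, CXCL8 and IL1B showed no overlap between the groups, as did 2.14% of all genes in that direction, and none was without overlap in the other (5.83%).

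With dipyridamole 6 of the 9 rose, CXCL2, CXCL3, CXCL8, IL24, IL1A and LIF, and none fell. The background for this drug is high, with 30.0% of genes tested passing, 17.5% higher and 12.6% lower, all as shares of 13899. The median difference was 0.82 for the members and 0.07 for all genes. CXCL2, CXCL3, IL24, IL1A and LIF were higher in all 4 pairs, as were 25.4% of all genes, and none was lower in all 4 (18.1%). CXCL2 and LIF showed no overlap, as did 13.0% of all genes in that direction, and none was without overlap in the other (11.7%). The sorafenib and dipyridamole differences come from the same 8 libraries and are set side by side only.

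Without both dipyridamole-treated control-cell libraries, CXCL8 and IL24 still fell with sorafenib, by 1.68 and 2.33 (limma adjusted p = 0.037 and 0.045), and IL1B did not pass (0.0996). In the same fit only CXCL2 still rose with dipyridamole, by 1.51 (adjusted p = 0.0496). IL24 then differed by 1.06 (adjusted p = 0.130), CXCL3 by 0.58 (0.298), CXCL8 by 0.30 (0.437), IL1A by 1.19 (0.214) and LIF by 0.34 (0.197). That fit rests on 6 libraries and on SLC29A2 cells alone for dipyridamole. It called 3168 of the 13899 genes for dipyridamole, 1516 higher and 1652 lower, and the 1 of 9 members that rose is near that share. For sorafenib it called 301 genes, 207 higher and 94 lower.

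**Figure D2:**
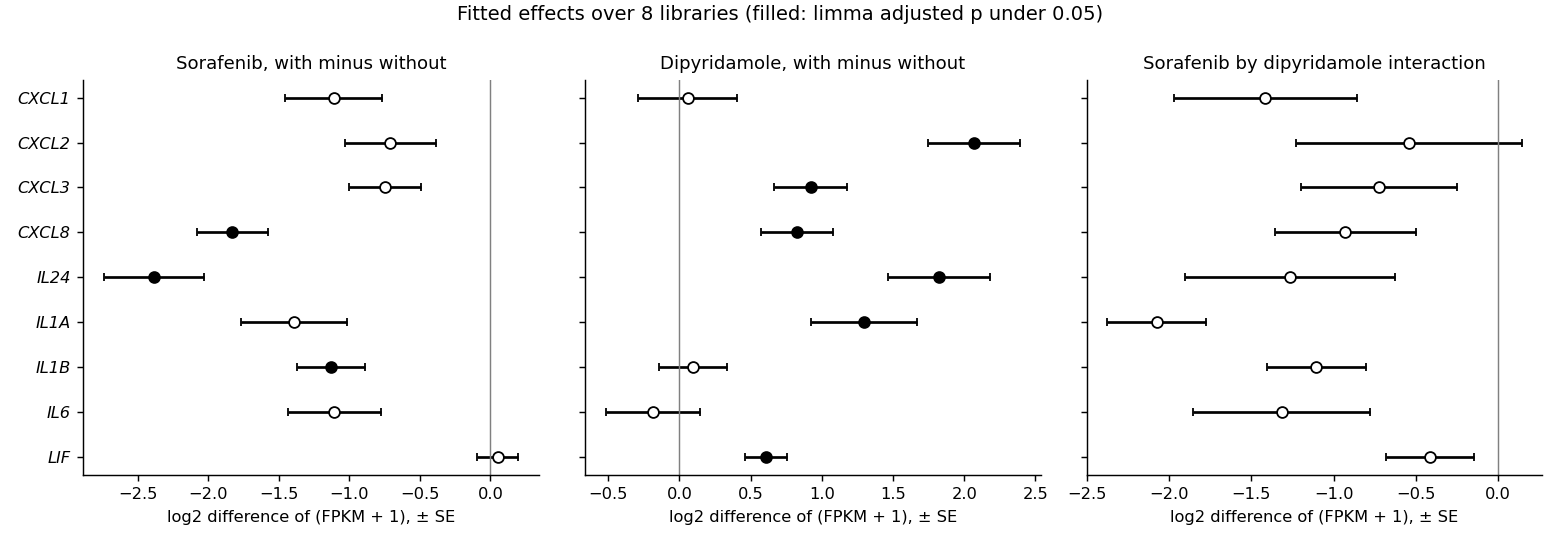
Fitted differences of the 9 tested genes on log2(FPKM + 1), with standard errors, for sorafenib, dipyridamole and their interaction; filled points passed limma at an adjusted p under 0.05. Sorafenib points lie left of 0 for all genes but LIF, and all interaction points lie left of 0, although none is filled.

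More members were at least 2-fold lower with sorafenib beside dipyridamole than without it, in single pairs of libraries. Against the control treatment, sorafenib left 2 of the 9 members at least 2-fold lower (on log2(FPKM + 1)) in control cells and 2 in SLC29A2 cells, as were 0.921% and 0.943% of all genes. Against dipyridamole alone, adding sorafenib left 5 at least 2-fold lower in control cells and 8 in SLC29A2 cells, as were 1.90% and 2.74% of all genes. None was 2-fold higher in any of these 4 pairs, beside 1.45% and 1.24% of all genes for sorafenib alone and 4.18% and 3.57% beside dipyridamole. CXCL2 in control cells went the other way, 1.91-fold lower with sorafenib alone and 1.07-fold lower beside dipyridamole. IL1A was 1.22-fold and 1.44-fold lower with sorafenib alone in control and SLC29A2 cells, and 4.42-fold and 8.10-fold lower beside dipyridamole. IL24 was 3.66-fold and 3.41-fold lower with sorafenib alone, and 5.96-fold and 11.6-fold lower beside dipyridamole. CXCL8 was 2.87-fold and 2.88-fold lower alone, and 5.24-fold and 5.71-fold lower beside dipyridamole.

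The test of this difference, the sorafenib by dipyridamole interaction, passed for 0 of the 9 members in limma, and for 12 of all genes (0.0863%). At an unadjusted p under 0.05 it counted 4 members, and 13.2% of all genes. All 9 estimates were below 0, from -2.08 ± 0.30 for IL1A (limma adjusted p = 0.099) to -0.41 ± 0.27 for LIF (0.558). IL1A passed with size factors (adjusted p = 0.041) and with voom on the recovered reads (0.048). CXCL2 was the only member whose estimate turned above 0 when a library was left out, reaching 0.42 without the SLC29A2-cell library given both drugs and 0.11 without that given sorafenib.

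Seen from the other drug, counts of 2-fold changes are again on log2(FPKM + 1). Dipyridamole alone left 6 members at least 2-fold higher in control cells and 4 in SLC29A2 cells, as were 5.36% and 4.13% of all genes. None was 2-fold lower (3.24% and 5.04%). As a ratio of FPKM, LIF was also 2.03-fold higher in control cells. Added to sorafenib, dipyridamole left 3 members 2-fold higher in control cells, CXCL2, CXCL3 and IL24, beside 8.19% of all genes. None was 2-fold lower on that scale (2.78%). As ratios of FPKM, CXCL8 was 2.025-fold higher there and IL1B 2.15-fold lower. In SLC29A2 cells dipyridamole added to sorafenib left none 2-fold higher (5.60% of all genes) and 2 at least 2-fold lower, CXCL1 and IL6 (5.42%). IL1A, 5.64-fold higher with dipyridamole alone in SLC29A2 cells, was at 6.53 and 6.54 FPKM without and with dipyridamole beside sorafenib there.

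**Figure D3:**
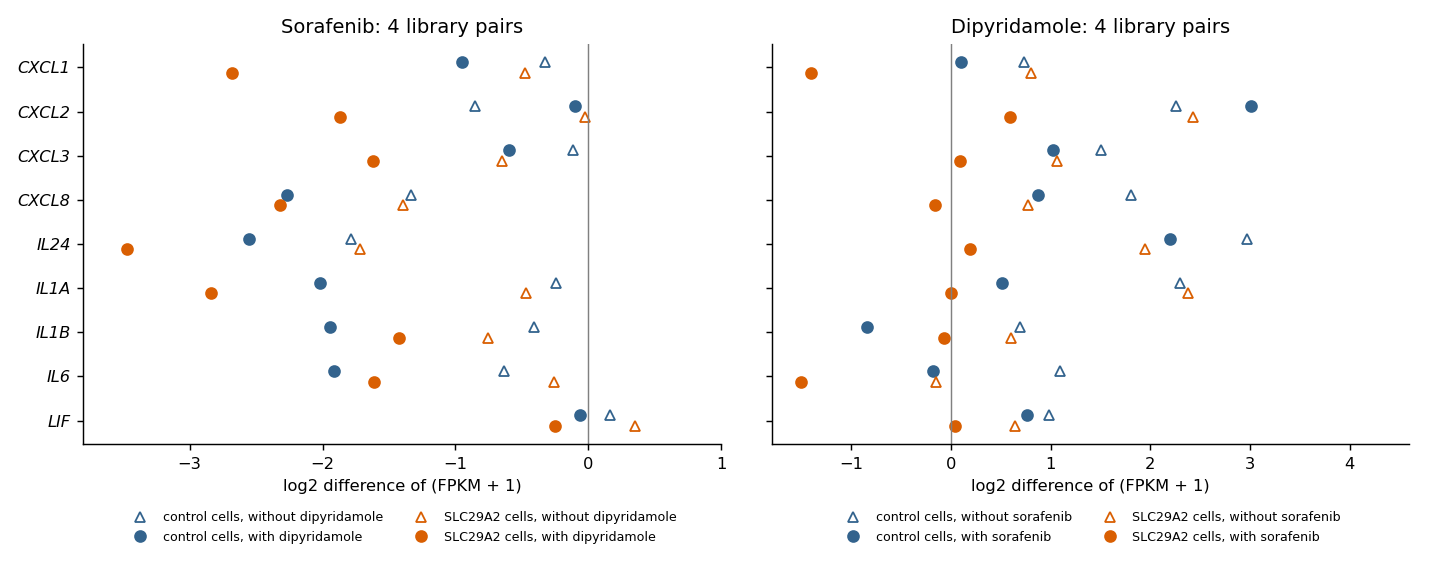
Difference of log2(FPKM + 1) between single libraries for each of the 9 tested genes, for sorafenib (left) and dipyridamole (right); colours give the cell type, open triangles the pair without the other drug and filled circles the pair with it. In the left panel the filled circle of SLC29A2 cells is the leftmost of the 4 points for 7 of the genes, and in the right panel the open triangles of every gene but IL6 lie right of 0 in both cell types.

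No member passed the comparison of SLC29A2 cells with control cells over all treatments. The limma differences ran from -0.31 for IL1B to 0.17 for IL1A, with adjusted p of 0.965 to 0.999, and 0 of 9 passed, none at an unadjusted p under 0.05. Of all genes 1 passed, SLC29A2 itself (0.00719%). With both drugs, however, 4 members, CXCL1, CXCL2, CXCL3 and IL24, were at least 2-fold lower in SLC29A2 cells than in control cells, as were 3.54% of all genes, and none was in the other 3 treatments (0.396% of all genes with the control treatment, 0.460% with sorafenib and 1.46% with dipyridamole). None was 2-fold higher in any treatment (0.662%, 0.648%, 0.273% and 0.331% of all genes, in the order of treatments used above). The ratios with both drugs were 2.58-fold for CXCL1, 3.42-fold for CXCL2, 2.92-fold for CXCL3 and 2.46-fold for IL24, from 1 library each. The control-cell library of this pair is the one with the size factor of 1.16, and the median of all genes in the pair was -0.148. With size factors CXCL3 was at 3.41 FPKM in control cells and 1.33 in SLC29A2 cells, less than 2-fold apart on log2(FPKM + 1). CXCL1, CXCL2 and IL24 stayed at least 2-fold lower. Neither interaction with cell type passed for any member, nor for any of the 13899 genes. The smallest adjusted p was 0.200 for cell type by dipyridamole (IL24, -1.52 ± 0.55) and 1.0 for cell type by sorafenib. At an unadjusted p under 0.05 limma counted 3 members and 19.8% of all genes for cell type by dipyridamole, and 0 members and 0.720% of all genes for cell type by sorafenib.

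Over the 8 libraries the 36 pairs among the 9 tested members had Pearson r of log2(FPKM + 1) between 0.12 and 0.97, with a median of 0.75. These points share the treatments, so r is a description only. CXCL8 and IL24 had the highest value, 0.97. Of all 13898 other tested genes, those most like CXCL8 were ESM1, GCKR and EREG (r = 0.98 for each), and those most like IL24 were MOSMO (0.98), CXCL8 and SEC23IP (0.97 each). The genes most like IL6 were STEAP1B (0.98), which overlaps it, OPN1SW and AC010761.1 (0.97 each). Those most like LIF were AC089983.1 and TAS2R5 (0.99 each) and CKMT2-AS1 (0.98).

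The gene lists that follow are to be read against the shares of all genes that passed, 5.94% higher and 2.17% lower for sorafenib and 17.5% higher and 12.6% lower for dipyridamole. Other chemokines were largely absent. Of 33 further chemokine ligands, 19 were listed at 0 in every library and 4 reached a mean of 1 FPKM. CXCL16, which exists as a membrane-bound chemokine, rose with dipyridamole by 0.60 ± 0.17 (limma adjusted p = 0.028), and none of the 4 passed for sorafenib. CCL5, a T cell attractant, was the most abundant at 29.8 to 109.8 FPKM, with 0.70 ± 0.19 for sorafenib (adjusted p = 0.054, and 0.017 without the SLC29A2-cell library given both drugs) and -0.37 ± 0.19 for dipyridamole (0.167). CCL26, an eosinophil attractant, differed by 0.07 ± 0.23 and -0.40 ± 0.23 (0.878 and 0.229). The CXCL16 call was lost without 6 of the 8 libraries, all but the untreated and the dipyridamole control-cell libraries (adjusted p 0.059 to 0.094).

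Of 30 other cytokines 10 were tested, and 3 rose with sorafenib while none fell, beside 3 of 9 members that fell. IL12A, CLCF1 and IL11 were lower with sorafenib but did not pass, at -0.93 ± 0.29, -0.78 ± 0.21 and -0.52 ± 0.18 (limma adjusted p = 0.079, 0.052 and 0.105). They were named after their values were seen, and the rest of those tested were higher. The list median was 0.60, beside 0.09 over all genes. IL32, a cytokine of many cell types, rose with sorafenib by 1.52 ± 0.17 and with dipyridamole by 1.58 ± 0.17 (limma adjusted p = 0.0029 and 3.0e-04). CSF1, the macrophage growth factor, rose by 1.42 ± 0.15 and 0.97 ± 0.15 (0.0026 and 0.0019). All 4 of these calls held without each library. IL18, a cytokine of the interleukin 1 family, rose with sorafenib by 0.67 ± 0.17 (adjusted p = 0.048), a call lost without any library but the SLC29A2-cell one given both drugs (0.083 to 0.144). IL18 differed by -0.18 ± 0.17 with dipyridamole (0.454). TNF did not exceed 0.0824 FPKM in any library, and IL1RN, the natural antagonist of interleukin 1, was listed at 0 in all 8. These last genes were picked after their values were seen.

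The receptors for the CXC members were nearly silent. CXCR1 was listed at 0 in all libraries and CXCR2 did not exceed 0.0832 FPKM, and both were picked after their values were seen. Of 14 receptor genes 7 were tested. IL6ST, which encodes gp130, was at 72.9 to 111.1 FPKM and differed by -0.12 ± 0.16 with sorafenib and -0.07 ± 0.16 with dipyridamole (limma adjusted p = 0.678 and 0.772). OSMR, a partner of gp130, was at 85.8 to 143.7 FPKM and differed by -0.13 ± 0.13 and 0.32 ± 0.13 (0.545 and 0.082). IL6R, the ligand-binding chain for IL6, rose with sorafenib by 1.15 ± 0.13 (limma adjusted p = 0.0032) and with dipyridamole by 0.49 ± 0.13 (0.021). IL1RAP, the accessory chain of the interleukin 1 receptor, rose with dipyridamole by 0.53 ± 0.13 (0.017). The sorafenib call of IL6R held without each library. Its dipyridamole call was lost without 6 libraries, all but the untreated and the dipyridamole SLC29A2-cell libraries (adjusted p 0.058 to 0.069). IL1RAP lost its call without the control-cell libraries given sorafenib or both drugs or the SLC29A2-cell sorafenib library (0.058 to 0.060).

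Of 14 genes for interleukin 1 processing and signalling 12 were tested, with 2 that rose with sorafenib and none that fell. SIGIRR, an inhibitory receptor of the family, rose with sorafenib by 1.13 ± 0.13 (limma adjusted p = 0.0034) and fell with dipyridamole by 0.78 ± 0.13 (0.0031). IRAK2, a kinase below the receptor, rose with sorafenib by 0.65 ± 0.14 (0.031), a call lost without any 1 library (0.055 to 0.113), and with dipyridamole by 1.06 ± 0.14 (0.0011). With dipyridamole CASP4, an inflammatory caspase, rose by 0.73 ± 0.15 (0.0078), and NLRP3, an inflammasome sensor, fell by 0.68 ± 0.17 (0.016). NLRP3 lost its call without the SLC29A2-cell library given sorafenib or dipyridamole (limma adjusted p 0.054 to 0.065). IRAK1 was the most abundant gene of the list, with a mean of 485 FPKM and a sorafenib difference of 0.03 ± 0.18 (0.941), whose sign turned with size factors. The calpains CAPN2 and CAPN1, next in level, did not pass for sorafenib.

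All 25 transcription factors known at such promoters and NF-kB feedback genes were tested, and with sorafenib 3 rose and 3 fell. The immediate early factors EGR1 and FOS fell by 3.18 ± 0.24 and 1.75 ± 0.18 (limma adjusted p = 0.0019 and 0.0025), and FOSL1, an AP-1 subunit, fell by 0.87 ± 0.16 (0.020). EGR1 had a mean of 24.4 FPKM without sorafenib and 1.77 with it. RELB, an NF-kB subunit, rose by 0.83 ± 0.14 (0.012), ATF3, a stress-induced factor, by 1.06 ± 0.26 (0.041), and NFKBIA, the NF-kB inhibitor, by 0.75 ± 0.17 (0.032), named after its value was seen. FOSL1 lost its call without either dipyridamole-treated control-cell library (0.060 to 0.076), and ATF3 without the dipyridamole or both-drug library of either cell type (0.103 to 0.140).

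With dipyridamole 11 of the same 25 rose and 1 fell, with a median of 0.32 beside 0.07 over all genes. ATF3 rose by 1.39 ± 0.26 (limma adjusted p = 0.0047), CEBPB, a C/EBP factor, by 1.30 ± 0.15 (4.5e-04), RELB by 1.22 ± 0.14 (4.3e-04) and NFKBIZ, a nuclear NF-kB cofactor, by 1.07 ± 0.21 (0.0054). SOCS3, the feedback inhibitor of gp130 signalling, fell by 1.13 ± 0.17 (0.0015). These 5 calls held without each library, while those of ATF3 and NFKBIZ were lost without both dipyridamole-treated control-cell libraries (0.074 and 0.119).

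Among 16 factors of AU-rich messenger RNA decay and stability, all tested, 1 rose and 2 fell with sorafenib. ZFP36, which encodes tristetraprolin, fell by 0.94 ± 0.24 (limma adjusted p = 0.047) and DUSP1, a phosphatase of p38 and JNK, by 0.74 ± 0.11 (0.0078). MAPK14, which encodes p38 alpha, rose by 0.44 ± 0.10 (0.031). With dipyridamole 1 rose and 4 fell, beside 17.5% of all genes higher and 12.6% lower. The list median was -0.28, beside 0.07 over all genes. Both directions together are, for 16 genes, near the 30.0% of all genes that passed. KHSRP, ZFP36L2, HNRNPD and CNOT1, all tied to messenger RNA decay, fell by 0.59 ± 0.15, 0.55 ± 0.16, 0.52 ± 0.10 and 0.39 ± 0.11 (0.016, 0.033, 0.0061 and 0.025), and DUSP1 rose by 0.35 ± 0.11 (0.039). Only HNRNPD, and DUSP1 for sorafenib, kept their calls without each library. MAPK14 lost its call without any 1 library (limma adjusted p 0.057 to 0.109), ZFP36 without 6 (0.052 to 0.123), KHSRP without 2 (0.053 to 0.059), ZFP36L2 without 5 (0.056 to 0.092), CNOT1 without 6 (0.0503 to 0.086), and DUSP1 for dipyridamole without 7 (0.056 to 0.138).

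Without both dipyridamole-treated control-cell libraries, CASP4, IL1RAP, IL6R, KHSRP, ZFP36L2 and CNOT1 no longer passed for dipyridamole, nor did IL18, IRAK2, ATF3, FOSL1, ZFP36 and MAPK14 for sorafenib (limma adjusted p over the threshold of 0.05). In the same fit CCL5 and CCL26 passed as lower with dipyridamole, at -0.80 and -0.86 (limma adjusted p = 0.035 and 0.041).

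**Figure D4:**
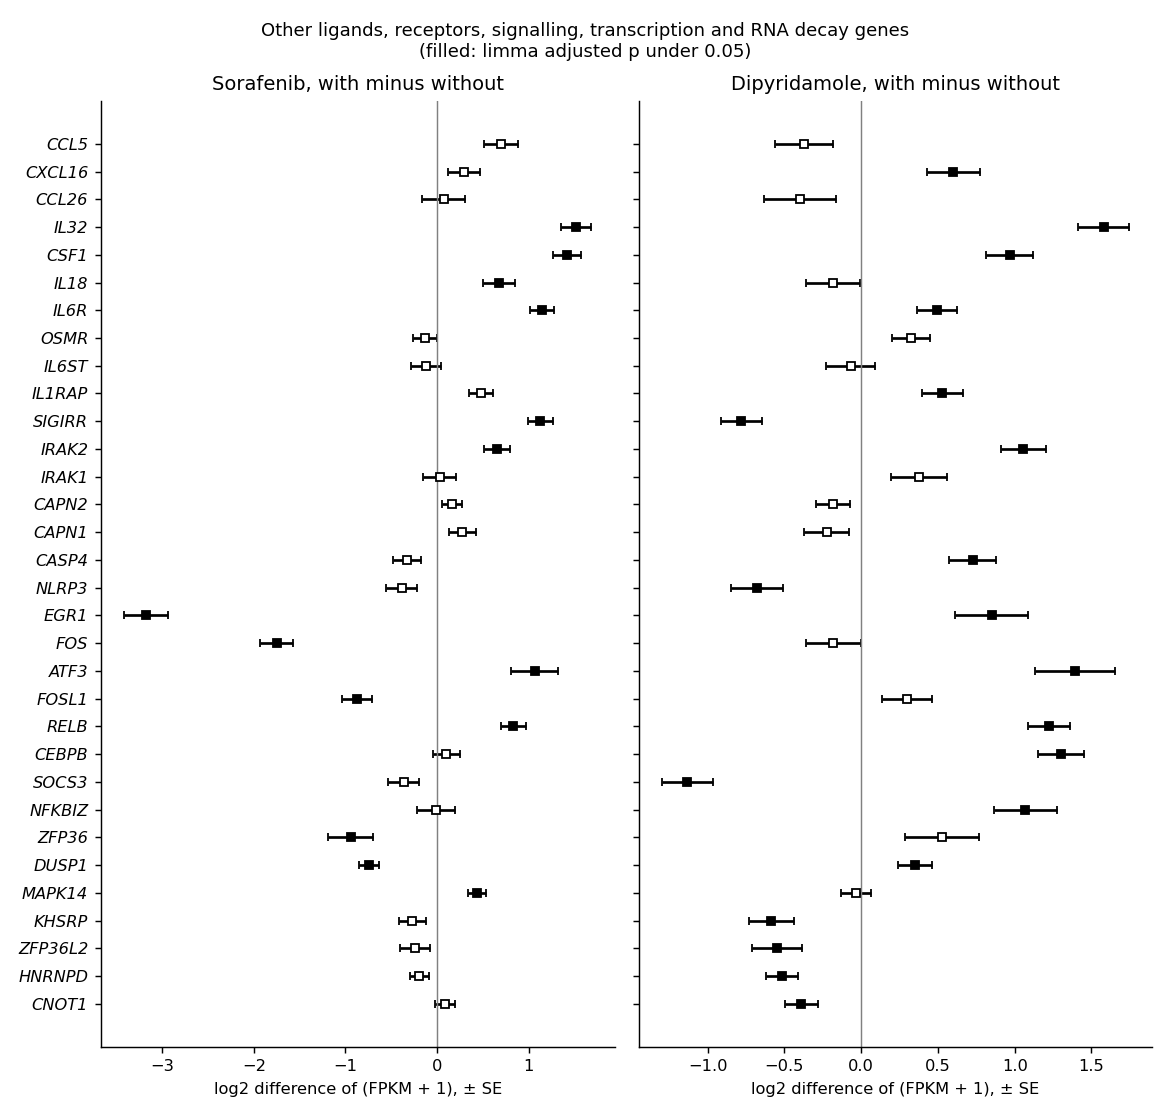
Fitted differences with standard errors on log2(FPKM + 1) for the named ligands, receptors, signalling, transcription and decay genes, with sorafenib on the left and dipyridamole on the right; filled squares passed limma at an adjusted p under 0.05. EGR1, at -3.18 with sorafenib, lies farthest from 0.

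The cell types that usually make or receive these signals left little trace. The summed level of 15 leukocyte markers was 1.83 to 5.15 FPKM per library, 1 of them reached a mean of 1 FPKM and 3 were listed at 0 throughout. In means over the pair of cell types that sum was 2.19 with the control treatment, 4.17 with sorafenib, 2.35 with dipyridamole and 5.00 with both drugs. For 9 endothelial markers the sum was 2.05 to 5.64 FPKM, and for 9 hepatocyte markers 1.76 to 5.64, with 1 marker at a mean of 1 FPKM in each list and 3 hepatocyte markers at 0 throughout. The endothelial sum was 2.84 FPKM with the control treatment, 2.53 with sorafenib, 5.16 with dipyridamole and 3.65 with both drugs, and TIE1 alone ran from 0.895 to 5.02. The hepatocyte sum was 2.21 FPKM with the control treatment, 5.10 with sorafenib, 1.88 with dipyridamole and 3.98 with both drugs, nearly all of it SERPINA1, at 1.73 to 5.64. The part of these sums in the drug results was not tested. ALB did not exceed 0.111 FPKM, KDR 0.0228 and PECAM1 0.259. VWF, also an endothelial marker, was at 1.54 FPKM in control cells and 1.66 in SLC29A2 cells with both drugs. In the other libraries VWF did not exceed 0.487. Of 7 mesenchymal markers 6 reached a mean of 1 FPKM, with sums of 1025 to 1715. Of 5 epithelial markers 3 did, all keratins, and their sum moved with dipyridamole, from 2578 FPKM with the control treatment and 2127 with sorafenib to 897.3 with dipyridamole and 903.9 with both drugs. KRT8 and KRT18 carried that difference. KRT19 was at 60.5 to 71.5 FPKM in control cells, and in SLC29A2 cells at 31.2 and 30.4 without dipyridamole and 81.3 and 63.8 with it. The part of that in the dipyridamole results was not tested.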

How the data were processed

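Poly(A)-selected RNA from 8 SK-Hep1 cultures was sequenced, per the labels' protocols. The authors deposited FPKM for each library. The build GRCh38.p12 and the tools HTSeq 0.6.1, TopHat2 2.0 and edgeR appear in the submitters' processing notes, without their roles. Every file had 58310 lines, 8 of them without a gene identifier, which were left out. Symbols and positions came from GENCODE release 29. FPKM times mean transcript length gave whole reads for 93.61% of values (tolerance 0.01), from which depth was recovered. Intervals and floors cover counting error only.

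All 13899 genes averaging 1 FPKM or more were fitted as log2(FPKM + 1) with limma 3.58.1 in R 4.3.3: an additive model of cell type, sorafenib and dipyridamole, with moderated variance following the mean. Tests were two-sided, with Benjamini-Hochberg adjustment over all genes at 0.05. Each interaction was added singly. The error term holds the spread between libraries and any interaction. The fit was also run on simulated data with changes for sorafenib alone. That run does not cover dipyridamole, cell type or interactions. The members and lists were chosen with earlier results of these data known. Named list genes were up to 5 per list and drug past the threshold, by size, and where fewer than 3 passed, the 3 most abundant. When libraries were left out, the genes of the full fit were kept, a choice made after results were seen, in place of filtering again on the remaining libraries. Alternatives were the pseudocount (0.1), filters (none, or a mean of 5 FPKM), size factors, no variance trend, voom on recovered reads, 4 separate treatments, all pairwise interactions, and libraries left out. The model with all pairwise interactions has nearly as many terms as libraries, so its calls rest on a weak estimate of error.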

Additional observations from a re-analysis of the deposited data

Results flagged for a closer look

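For 6 members the 2 library pairs on one side of another factor moved one way and the 2 on the other side moved the opposite way, on log2(FPKM + 1). Every combination of 2 factors was searched for each member. The share of all genes with such a pattern was not computed, so the count cannot be read as particular to the members. CXCL8 was higher in SLC29A2 than in control cells without dipyridamole, by 0.51 and 0.45, and lower with it, by -0.53 and -0.58, a difference of -1.04 (interaction in limma, adjusted p = 0.211). IL24 did the same, with 0.68 and 0.75 against -0.34 and -1.26, a difference of -1.52 (adjusted p = 0.200). IL6 followed, with 0.47 and 0.84 against -0.79 and -0.49, a difference of -1.29 (adjusted p = 0.247). IL1B was higher with dipyridamole without sorafenib, by 0.69 and 0.60, and lower beside it, by -0.84 and -0.08, a difference of -1.10 (adjusted p = 0.249). LIF was higher with sorafenib without dipyridamole, by 0.16 and 0.35, and lower beside it, by -0.06 and -0.25, a difference of -0.41 (adjusted p = 0.558). CCL2 was lower in SLC29A2 than in control cells without sorafenib, by -0.49 and -0.50, and higher with it, by 0.11 and 0.19, a difference of 0.64 that rests on 0 to 12 reads per library. CCL2 was below the level set for testing, and in the limma fit with no filter this interaction did not pass (adjusted p = 1.0). No limma interaction named here passed.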

How the results depend on the processing

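No paired analysis was possible because the labels give no replicate numbers that could serve as a block; libraries were paired by treatment and cell type alone. CCL2, at 0 to 12 reads per library, has the widest relative counting intervals of the members. Sorafenib calls numbered 1127 genes (825 higher, 302 lower), 136 with no filter, 4839 with all interactions, 1755 with 4 separate treatments, 301 without both dipyridamole-treated control-cell libraries and 272 to 914 with a single library left out. Size factors gave 478 higher and 470 lower. Of the members, 3 became 0, 7 and 6 under the first 3 of these, 5 with voom and 2 to 7 with a library left out. Dipyridamole calls numbered 4173 genes (2428 higher, 1745 lower), 2622 with no filter and 7411 with all interactions, and with size factors 2079 higher and 2205 lower. They numbered 3168 without both dipyridamole-treated control-cell libraries and 2926 to 3641 with a single library left out. Of the members, 6 became 2 with no filter, 1 without both dipyridamole-treated control-cell libraries and 2 to 7 with a library left out. With no filter CXCL8 and IL24 no longer passed for sorafenib (adjusted p = 0.062 and 0.073). Cell type calls were 1 to 2 genes with a library left out, and cell type by dipyridamole 0 to 1. The 12 sorafenib by dipyridamole calls became 0 with a pseudocount of 0.1, with no filter or without a variance trend, 25 with size factors, 24 with voom and 0 to 2 with a library left out, while 1 member passed with size factors and 1 with voom. Size factors moved the median of all genes from 0.10 to 0.00 in this interaction and from -0.14 to -0.01 in cell type by dipyridamole.

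Several differences that had not passed changed sign. With size factors these were sorafenib on LIF (-0.055), CCL26 (-0.022) and IRAK1 (-0.08), and dipyridamole on CXCL1 (-0.007). Without both dipyridamole-treated control-cell libraries they were dipyridamole on CXCL1 (-0.30) and sorafenib on IL6ST (0.017) and IRAK1 (-0.13). With single libraries left out, sorafenib ranged from -0.092 to 0.192 on LIF, -0.19 to 0.32 on CCL26, -0.261 to 0.054 on IL6ST and -0.13 to 0.18 on IRAK1. Dipyridamole ranged from -0.25 to 0.54 on CXCL1, -0.066 to 0.339 on IL1B, -0.55 to 0.19 on IL6, -0.352 to 0.009 on IL18 and -0.243 to 0.066 on IL6ST, and the drug interaction on CXCL2 from -1.51 to 0.42. With size factors the levels in control cells with both drugs were 19.2 FPKM for CXCL1, 57.6 for CXCL2, 46.7 for IL24, 7.42 for IL1A and 34.5 for LIF, and in SLC29A2 cells with dipyridamole 65.4, 79.1, 273.3, 56.9 and 32.1. The cause of these changes was not tested.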
